A study of Mus musculus with 12 samples.

Results

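The lysosome digests proteins, lipids and sugars in an acid interior, and 4 groups of its genes were followed here: the vacuolar proton pump (V-ATPase), the cathepsins, the lysosome-associated membrane proteins, and the cholesterol carriers Npc1 and Npc2. Members were chosen by name. A probe set qualified when its 1 deposited gene symbol began with Atp6v, with Cts and a single letter, or with Lamp, or was Npc1 or Npc2. The brightest probe set stood for each gene, and a gene was kept when its mean signal over all 12 arrays exceeded 20. This gave 29 members out of 44 genes with such a name and out of 20670 genes with 1 symbol on the array. They were 7 V0 subunits, 8 V1 subunits, 10 cathepsins, 2 Lamp proteins and 2 Npc proteins.

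Expression was measured on Affymetrix arrays in 2 mouse lines, 3T3-L1 preadipocytes, which can become fat cells, and 10T1/2 mesenchymal stem cells, which can become fat, bone, cartilage or muscle. All cells, controls included, were transfected with siRNA at day -5 and at day 0, and were harvested either before dexamethasone (0 hr) or after growth in differentiation medium with 0.25 µM of this synthetic glucocorticoid. Control siRNA (si-Ctr) and Setdb1 siRNA (si-Setdb1) were each used in 3T3-L1 cells at 0 hr (2 arrays each, from experiments labelled A and B), in 3T3-L1 cells at 36 hr (1 array each, experiment A), in 10T1/2 cells at 0 hr (1 array each) and in 10T1/2 cells at 48 hr (1 array each). Mbd1 siRNA (si-Mbd1) and Mcaf1 siRNA (si-Mcaf1) had 1 array each, in 3T3-L1 cells of experiment B. The titles of the si-Mbd1 and si-Mcaf1 arrays give 0 hr whereas their descriptions give 36 hr, and the titles were followed. Setdb1 is a histone H3K9 methyltransferase, Mbd1 binds methylated DNA, and Mcaf1 (Atf7ip) is a partner of both. Each line is a single established line, and nothing in the labels says that arrays came from separate cultures beyond the experiment letters, so the spread behind each p-value is that among these arrays and may be technical.

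The knockdown labels were only partly borne out by the brightest probe set of each target gene, the only one read. A single probe set cannot decide whether a knockdown took place. The brightest Setdb1 probe set read 120.5 to 179.8 on the 5 si-Ctr arrays and 143.0 to 209.0 on the 5 arrays labelled si-Setdb1, so it was not lower there, and under the label si-Mcaf1 it was 270.9, where the control had 144.8. Atf7ip read 105.9 to 187.3 on the si-Ctr arrays and 358.9 to 502.6 on those labelled si-Setdb1, higher in 5 of 5 pairs. Atf7ip, the Mcaf1 gene, had a signal of 154.5 under the label si-Mcaf1 and 159.6 with si-Ctr, while Mbd1 had 144.0 under si-Mbd1 and 306.2 with si-Ctr. Fibroblast and preadipocyte markers were above a signal of 20 for 9 of 9 genes, against 0 of 5 osteoclast and 0 of 4 endothelial markers, 1 of 4 epithelial and 3 of 9 macrophage markers. The 3 macrophage markers above 20 were Cd14 (82.56), Lyz2 (37.32) and Csf1r (29.69), while Ptprc, the pan-leukocyte marker, averaged 4.34. The 4 arrays of experiment B had a higher median signal (14.9 to 18.0, against 11.2 to 12.1 elsewhere) and a lower Gapdh 3'/5' ratio (0.691 to 0.747, against 0.859 to 0.933).

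As background, the V-ATPase couples ATP hydrolysis in its V1 sector to proton transport through its membrane-embedded V0 sector, and the acid it makes activates the cathepsins, most of which are cysteine or aspartic proteases made as inactive precursors. Lamp1 and Lamp2 are heavily glycosylated proteins of the lysosomal membrane. Npc2 is a soluble protein that binds cholesterol inside the lysosome and passes it to Npc1, a membrane protein, for export, and loss of either gene causes Niemann-Pick type C disease. Many lysosomal genes carry the E-box-like CLEAR element, bound by the transcription factor Tfeb and its relatives.

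Start-site sequences are printed for the members with the clearest difference between siRNAs, Npc2 and Atp6v1d, and, for contrast, for 2 members with a match to the core of the CLEAR element. They come from RefSeq on GRCm38.p6 and run from 150 bases before the annotated start to 30 after it, 5′ to 3′ on the gene's strand. Npc2 lies at chr12:84773083-84773262 on the minus strand, Atp6v1d at chr12:78861609-78861788 on the minus strand, Ctsa at chr2:164833623-164833802 on the plus strand and Atp6v0b at chr4:117887300-117887479 on the minus strand. Capitals mark matches to CACGTG, or to the longer GTCACGTG read on either strand.
Npc2: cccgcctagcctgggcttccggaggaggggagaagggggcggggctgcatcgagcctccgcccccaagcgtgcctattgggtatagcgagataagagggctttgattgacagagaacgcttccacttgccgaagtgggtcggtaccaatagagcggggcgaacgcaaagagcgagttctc
Atp6v1d: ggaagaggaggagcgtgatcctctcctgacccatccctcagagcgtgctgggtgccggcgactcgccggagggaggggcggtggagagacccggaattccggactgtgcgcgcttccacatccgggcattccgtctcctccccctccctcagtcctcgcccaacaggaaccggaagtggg
Ctsa: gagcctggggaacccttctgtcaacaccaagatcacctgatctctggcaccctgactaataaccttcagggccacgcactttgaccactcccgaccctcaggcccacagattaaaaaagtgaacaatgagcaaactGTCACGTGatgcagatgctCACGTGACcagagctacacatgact
Atp6v0b: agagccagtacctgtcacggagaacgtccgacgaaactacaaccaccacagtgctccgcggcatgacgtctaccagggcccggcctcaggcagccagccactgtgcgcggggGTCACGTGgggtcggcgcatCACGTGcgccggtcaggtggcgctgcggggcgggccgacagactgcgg

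The Npc2 and Atp6v1d windows hold no match to either motif, which says only that these letters are not in the window. Of the 29 members, 20 matched a RefSeq start-site window of 300 bases (250 before to 50 after the start), with 23 windows between them. CACGTG, which is its own reverse complement, was present in 9 of the 23 windows (39.1%), against 7.15% of all 32851 windows and 9.75% of the windows of genes that entered the tests. GTCACGTG, which contains CACGTG, was present on either strand in 5 windows (21.7%), those of Ctsa, Atp6v0b, Ctsd, Lamp1 and Atp6v0d1, against 2.25% of all windows and 4.05% of those of tested genes. The median GC content was 57.7% in the members' windows, 52.7% in all windows and 61.0% in those of tested genes. The members with GTCACGTG had log2 differences of -0.28 to 0.10 in the comparison of si-Setdb1-labelled with si-Ctr arrays described next (median -0.07, 5 genes). The 15 without it, Npc2 and Atp6v1d among them, ranged from -1.765 to 0.4752, with a median of 0.03.

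Mean signals of the kept members ran from 25.5 to 3809, and those of the 15 left out from 1.12 to 13.3. Just inside the limit of 20 lay Ctsh (25.5) and Atp6v0e2 (30.9), and just outside it lay Atp6v1e2 (13.3) and Ctsc (8.38). The V-ATPase subunits left out were Atp6v0a4, Atp6v0d2, Atp6v1b1, Atp6v1c2, Atp6v1e2 and Atp6v1g2, isoforms whose kept counterparts include Atp6v0a1, Atp6v0d1, Atp6v1b2, Atp6v1c1, Atp6v1e1 and Atp6v1g1. The cathepsins left out were Ctsc, Ctsg, Ctsj, Ctsm, Ctsq, Ctsr, Ctss and Ctsw, and Lamp5 was the Lamp gene left out. Within the V-ATPase, mean signals lay between 30.9 for Atp6v0e2 and 2626 for Atp6v0c, the proton-carrying proteolipid. Among the cathepsins they lay between 25.5 for Ctsh and 3256 for Ctsl. Lamp1 averaged 3809 and Lamp2 2742, and Npc2 averaged 3016 and Npc1 109.5. Signals of different probe sets are not comparable as levels, and these values only describe how far each lay above the limit.

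Over the 12 arrays, the span between the highest and lowest normalised log2 signal of a member had a median of 1.07, against 1.25 for the 12402 genes tested. Lamp1 varied least, by 0.36 on this scale (1.28-fold), and Atp6v1c1, a V1 subunit, by 0.38. Ctsk spanned 6.82, Ctsh 3.03, Ctse 2.88, Atp6v1d 2.81 and Npc2 2.35. All 29 members passed the filter on dim genes, a mean signal of 9.32, so every member was tested. The genes tested had to reach only that level, whereas members had to exceed 20. Neither the 2 medians above nor the shares of all genes given below are matched for brightness.

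The first comparison paired each array labelled si-Setdb1 with the si-Ctr array that shared its line, time and experiment letter. Npc2 and Atp6v1d fell. The other 27 members did not pass the test, Npc1 among them. In all, 2 of 29 members passed as lower and 0 as higher, where 1.02% of the 12402 genes tested passed in either direction (0.597% lower and 0.427% higher). This background depends on the filter and the variance model. With a 60th percentile filter (63.28), 2 members and 800 of 8268 genes passed. With a variance trend, 3 members and 887 of 12402 genes passed. The share of members called is therefore not read as a result about the members. Adipocyte markers moved with the same arrays. The summed signal of the 4 measured ones was 34.1 to 2181 on the 5 si-Ctr arrays and 564.3 to 14895 on the 5 arrays labelled si-Setdb1, higher in each pair, and the part of this shift in the results below was not tested. In RNA from whole cultures, fewer cells of a type and less RNA per cell cannot be told apart.

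Npc2, the soluble cholesterol carrier, read 3111.5 in 3T3-L1 cells at 0 hr in experiment A, 3766.3 in experiment B, 5493.9 at 36 hr, 4215.2 in 10T1/2 cells at 0 hr and 5689.4 at 48 hr with si-Ctr. On the arrays labelled si-Setdb1, in the same order, it read 1398.4, 1375.4, 1112.8, 1107.8 and 1558.6. Every array labelled si-Setdb1 lay below every si-Ctr array, with group means of 1311 ± 196 and 4455 ± 1111 (SD, n = 5 each). The paired log2 differences were -1.24, -1.51, -2.20, -1.98 and -1.89, a mean of -1.76 ± 0.38 (SD, n = 5), or 0.294 of the control level. This passed limma's test with an SE of 0.15 and an adjusted p of 0.0315. Of the 29 members, 1 had groups that did not overlap and were lower (3.45%, against 1.25% of all genes tested), and that member was Npc2.

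Other Npc2 probe sets also read lower on average. Those with mean signals of 2706 and 164.0 differed by -1.45 and -1.57 on the log2 scale and were lower in 5 of 5 pairs. The dimmest, with a mean signal of 9.35, differed by -0.52 and was lower in 4 of 5.

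Npc1, which accepts cholesterol from Npc2, did not pass the test. It read 119.4, 134.2, 112.9, 66.4 and 73.7 with si-Ctr and 122.1, 131.8, 140.2, 71.6 and 67.1 on the arrays labelled si-Setdb1, in the order used for Npc2. The arrays of the 2 siRNAs overlapped, and the values split by line rather than by siRNA. The log2 difference was 0.08 ± 0.09 (SE), with an adjusted p of 0.624 in limma's test.

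Atp6v1d, the D subunit of the V1 sector's central rotor, read 689.1, 426.8, 819.7, 896.2 and 1160.2 with si-Ctr. It read 344.5, 160.7, 272.3, 477.5 and 671.4 on the paired arrays labelled si-Setdb1. Each pair was lower, although the groups overlapped, since both 10T1/2 arrays labelled si-Setdb1 lay above the dimmest si-Ctr array. The paired log2 differences were -0.99, -1.47, -1.51, -0.90 and -0.72, a mean of -1.12 ± 0.35 (SD, n = 5), and limma's adjusted p was 0.0416 with an SE of 0.14. Its other probe sets, with mean signals of 500.6 and 381.8, differed by -0.75 and -0.88 and were lower in 5 of 5 pairs. The 3 probe sets may share transcripts and were not counted as replicates.

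**Figure D1:**
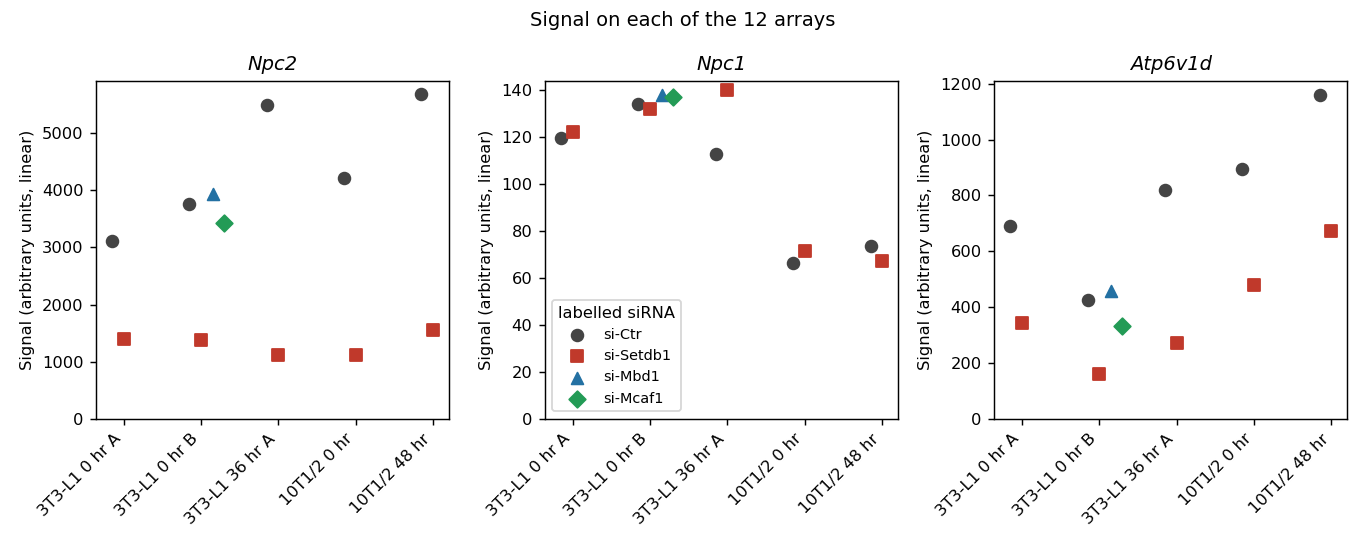
Deposited signal (arbitrary units, linear axis from 0) of Npc2, Npc1 and Atp6v1d on each of the 12 arrays, 1 point per array, grouped by line, time and experiment and coloured by the labelled siRNA. The arrays labelled si-Setdb1 read 1107.8 to 1558.6 for Npc2, all below the si-Ctr arrays, whereas Npc1 separates by line.

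Both calls rest on all 5 pairs. With any 1 of the 5 pairs left out, neither gene passed (adjusted p of 0.0717 to 0.124 for Npc2 and 0.0853 to 0.133 for Atp6v1d), and no gene on the array passed either, while the differences stayed between -1.90 and -1.66 for Npc2 and between -1.22 and -1.02 for Atp6v1d. Without the filter on dim genes neither passed (adjusted p of 0.161 and 0.171), and Atp6v1d did not pass without the pair as a block (0.0997) or with the mean of its probe sets (0.0572).

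The remaining proton pump subunits did not pass. Of the 15 V-ATPase genes, 1 passed (Atp6v1d) and 14 did not, and the 15 log2 differences had a median of -0.07, against 0.0015 over all genes tested. V0 subunits ranged from -0.20 (Atp6v0b) to 0.26 (Atp6v0e2). Atp6v1g1, a stalk subunit, differed by -0.24 (adjusted p = 0.221 in limma's test). Cathepsins had a median difference of 0.06, with 0 of 10 passing.

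The lysosomal cysteine protease Ctsl came next by p. It read 3818.3, 3636.2, 3947.8, 2362.1 and 3416.6 with si-Ctr and 3616.6, 3384.2, 3073.0, 2036.0 and 2231.8 on the paired arrays labelled si-Setdb1, lower in 5 of 5 pairs by a mean of -0.32 ± 0.19 (SD) on the log2 scale, but limma's adjusted p was 0.134, and 0.0383 with a variance trend in the eBayes step. Ctse, an aspartic protease, read 19.2, 111.1, 40.3, 99.9 and 23.9 against 22.6, 80.1, 23.4, 41.8 and 12.3, a log2 difference of -0.62 with an adjusted p of 0.163 in the same test. Its arrays overlapped widely between siRNAs. Among members that read higher, the smallest p belonged to Ctsf, a cysteine protease, which read 29.3, 28.5, 30.8, 33.9 and 77.9 with si-Ctr and 59.1, 55.0, 44.7, 43.3 and 53.1 on the arrays labelled si-Setdb1 (log2 difference 0.48, limma adjusted p = 0.295). Ctsf was higher in 4 of 5 pairs and lower in 10T1/2 cells at 48 hr.

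Ctsh, an aminopeptidase among the cathepsins, read 16.9, 7.5, 20.2, 29.1 and 42 with si-Ctr and 16.1, 18.6, 15, 51.0 and 45.1 on the arrays labelled si-Setdb1 (log2 difference 0.30, limma adjusted p = 0.491). These signals lie near the filter level on several arrays. Lamp1 read 3403.2, 2997.1, 4373.9, 3471.0 and 4448.3 with si-Ctr and 4466.2, 3893.8, 4227.8, 3654.4 and 4113.1 with the label si-Setdb1, a log2 difference of 0.10 (limma adjusted p = 0.572). Lamp2 differed by 0.05 (adjusted p = 0.900 in the same test).

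At an unadjusted p under 0.05, 5 of the 29 members passed in this comparison, all as lower, where 22.2% of all genes tested passed in either direction and 11.8% as lower. Npc2, Atp6v1d, Ctsl and Atp6v1f were lower in every pair, 4 of 29, against 11.9% of all genes, and 0 members were higher in every pair, against 11%. Of the 54 member probe sets with a mean signal above 20, 10 were lower in 5 of 5 pairs and 0 were higher. Of these 10, 3 belong to Npc2 and 3 to Atp6v1d. The share over all probe sets was not counted, so this is a description and not a result about the members.

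**Figure D2:**
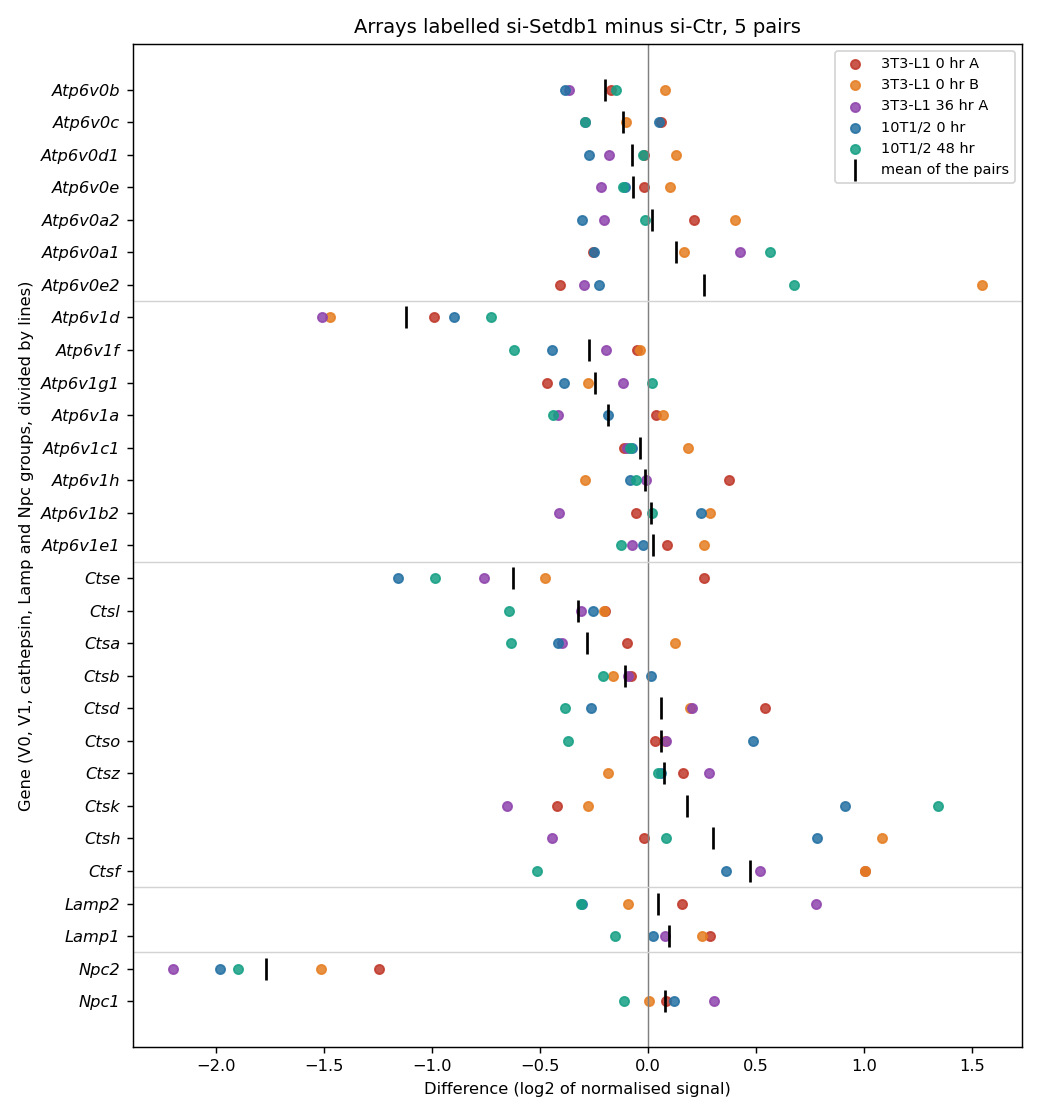
Log2 difference of the normalised signal between the array labelled si-Setdb1 and its si-Ctr array for each of the 29 members, 1 point per pair coloured by line, time and experiment, with a bar at the mean of the 5 pairs. Npc2 (mean -1.76) and Atp6v1d (mean -1.12) lie to the left of 0 in every pair.

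In undifferentiated 3T3-L1 cells alone, with 2 arrays a group, 0 of 29 members passed, where 0.0161% of all genes tested passed. Npc2 differed by -1.38 ± 0.23 (SE) on the log2 scale (limma adjusted p = 0.550) and Atp6v1d by -1.23 ± 0.47 (0.896). In the other direction Ctsf differed by 1.0 (0.777) and Atp6v0a2, a V0 membrane subunit, by 0.31 (0.978), and by an unadjusted p under 0.05 Npc2 and Ctsf passed, 2 of 29 against 5.5% of all genes.

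A test of whether this difference varied with the line, fitted as an interaction, had 0 members and 0% of all genes past the threshold. Ctsk, the cathepsin best known from bone resorption, had the largest value, but its 10T1/2 signals were only 4.7 to 21.3. Most of these lie near or under the filter level on dim genes, where the pseudocount bears on the difference. Its si-Setdb1-labelled minus si-Ctr difference was 1.58 higher in 10T1/2 than in 3T3-L1 cells on the log2 scale (described only). Ctsd, the main lysosomal aspartic protease, gave -0.64 (limma adjusted p = 0.499), Ctsf -0.92 (0.562) and Atp6v1d 0.51 (0.635). Ctsf turned to 0.12 with the mean of its probe sets, and the other Atp6v1d probe sets gave -0.0748 and -0.0018. Another Npc2 probe set gave 0.20. At an unadjusted p under 0.05 it was 4 members, against 8.31% of all genes. They were Ctsd, Ctsf, Atp6v1f (-0.44) and Ctsk, the last described only. Atp6v1d was not among them. For Npc2 the interaction was -0.29 (0.862), and the differences in the lines were not shown to differ.

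The interaction with dexamethasone likewise had 0 members and 0% of all genes past the threshold. Atp6v0a1, a V0 membrane subunit, gave 0.61 (limma adjusted p = 0.684), Atp6v1g1 0.33 (0.711), Atp6v1a, the catalytic V1 subunit, -0.40 (0.697), and Ctsh -0.80 (0.711). Npc2 gave -0.47 (0.722). Other probe sets gave -1.37 for Atp6v0a1 (mean signal 11.2), -0.40 for Atp6v1g1 (1348) and 0.88 for Npc2 (9.35), all of opposite sign. At an unadjusted p under 0.05, 1 member passed, against 7.12% of all genes.

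The second comparison set cells after dexamethasone against cells at 0 hr of the same line and siRNA, over 4 pairs of arrays. By limma's test 0 of 29 members passed, where 0.766% of all genes tested passed (95 genes). A mean log2 difference above 0 was found for 24 of 29 members, against 6049 of the 12402 genes tested. For the V-ATPase it was 14 of 15, with a median of 0.29, against -0.0081 over all genes tested. The single pairs were unlike. In 3T3-L1 cells 19 of 29 members were above 0 with si-Ctr and 14 with the label si-Setdb1 (median -0.0462). In 10T1/2 cells these counts were 25 and 23. Among the 12402 genes tested they were 6237, 6247, 6421 and 5854, in the same order. For the 15 V-ATPase genes they were 11, 9, 12 and 13. At an unadjusted p under 0.05, 7 members passed as higher, against 10.4% of all genes, and 0 as lower, against 10.4%. These 7 were Atp6v0d1, Atp6v1b2, Atp6v0b, Atp6v1h, Atp6v0e, Atp6v1e1 and Ctsk, and 7 members were higher in each of the 4 pairs, against 16.4% of all genes. Adipocyte markers moved with dexamethasone too. Their summed signal was 34.1 to 2435 on the 4 arrays at 0 hr and 1093 to 14895 on the 4 arrays after it, and its part in these values was not tested.

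Atp6v0d1, the V0 subunit that joins the membrane ring to the V1 stalk, had the smallest p. In 3T3-L1 cells of experiment A it read 2169.5 with si-Ctr and 2331.2 with the label si-Setdb1 at 0 hr, and 3352.0 and 2950.3 at 36 hr. In 10T1/2 cells the same order gave 1950.5 and 1646.4 at 0 hr and 2900.4 and 2987.2 at 48 hr. The arrays after dexamethasone all lay above those at 0 hr, a mean log2 difference of 0.51 ± 0.18 (SD, n = 4) with a limma adjusted p of 0.117. By normalised signal, 2 of 29 members were separated in this way (6.9%, against 3.31% of all genes tested).

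Atp6v1b2, the nucleotide-binding B subunit of V1, read 486.1, 462.6, 260.8 and 309.9 at 0 hr and 706.9, 526.3, 475.3 and 478.4 afterwards, in the order 3T3-L1 si-Ctr, 3T3-L1 si-Setdb1, 10T1/2 si-Ctr and 10T1/2 si-Setdb1 (0.55 ± 0.27, limma adjusted p = 0.136). Atp6v0b, a proteolipid of the V0 ring, read 589.6, 522.3, 408.5 and 310.7 at 0 hr and 809.5, 614.7, 593.0 and 533.1 afterwards (0.49 ± 0.23, 0.138). Both were higher in 4 of 4 pairs and overlapped between 0 hr and dexamethasone when the lines were pooled. Read with a variance trend in the eBayes step, these 3 subunits passed (adjusted p of 0.0243 to 0.0468), and Atp6v0d1 also passed with a stricter filter on dim genes (0.0468).

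On the lower side Atp6v0a2 read 133.6, 150.3, 129.3 and 102.3 at 0 hr and 121.0, 103.4, 92.5 and 90.7 afterwards, lower in 4 of 4 pairs (mean log2 difference -0.27, limma adjusted p = 0.268), where 1 member was lower in every pair against 15.4% of all genes. A second Atp6v0a2 probe set, with a mean signal of 56.4, gave 0.13. Ctsa, a serine carboxypeptidase that protects other lysosomal hydrolases, read 1589.4, 1546.4, 1335.3 and 995.4 at 0 hr and 1589.4, 1218.4, 1603.9 and 1042.4 afterwards (-0.06, 0.833). Ctse differed by -0.62 (0.565), from opposite values in the lines. It read 19.2 and 22.6 in 3T3-L1 cells at 0 hr and 40.3 and 23.4 at 36 hr, and 99.9 and 41.8 in 10T1/2 cells at 0 hr and 23.9 and 12.3 at 48 hr.

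The difference between the lines in the dexamethasone effect was tested as an interaction added after the data were seen, for which 0 members and 0% of all genes passed. Exposure was 48 hr in 10T1/2 and 36 hr in 3T3-L1 cells, and the 10T1/2 labels carry no experiment letter. Line, length of exposure and experiment therefore cannot be told apart in this interaction. For Ctse it was -2.36 ± 0.40 (SE) on the log2 scale with a limma adjusted p of 0.246, and at an unadjusted p under 0.05 it was the 1 member to pass, against 10% of all genes. The 3T3-L1 arrays of experiment B read 80.1 to 111.1 for Ctse at 0 hr against 19.2 and 22.6 in experiment A, so this probe set also differed between experiments. The interaction value was above 0 for 25 of 29 members, against 6232 of the 12402 genes tested. Its median was 0.27 in the members, against 0.0016 over all genes. Npc2 differed by 0.23 ± 0.43 (SD, n = 4) after dexamethasone (limma adjusted p = 0.521), Npc1 by 0.09 (0.623) and Atp6v1d by 0.18 (0.560).

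**Figure D3:**
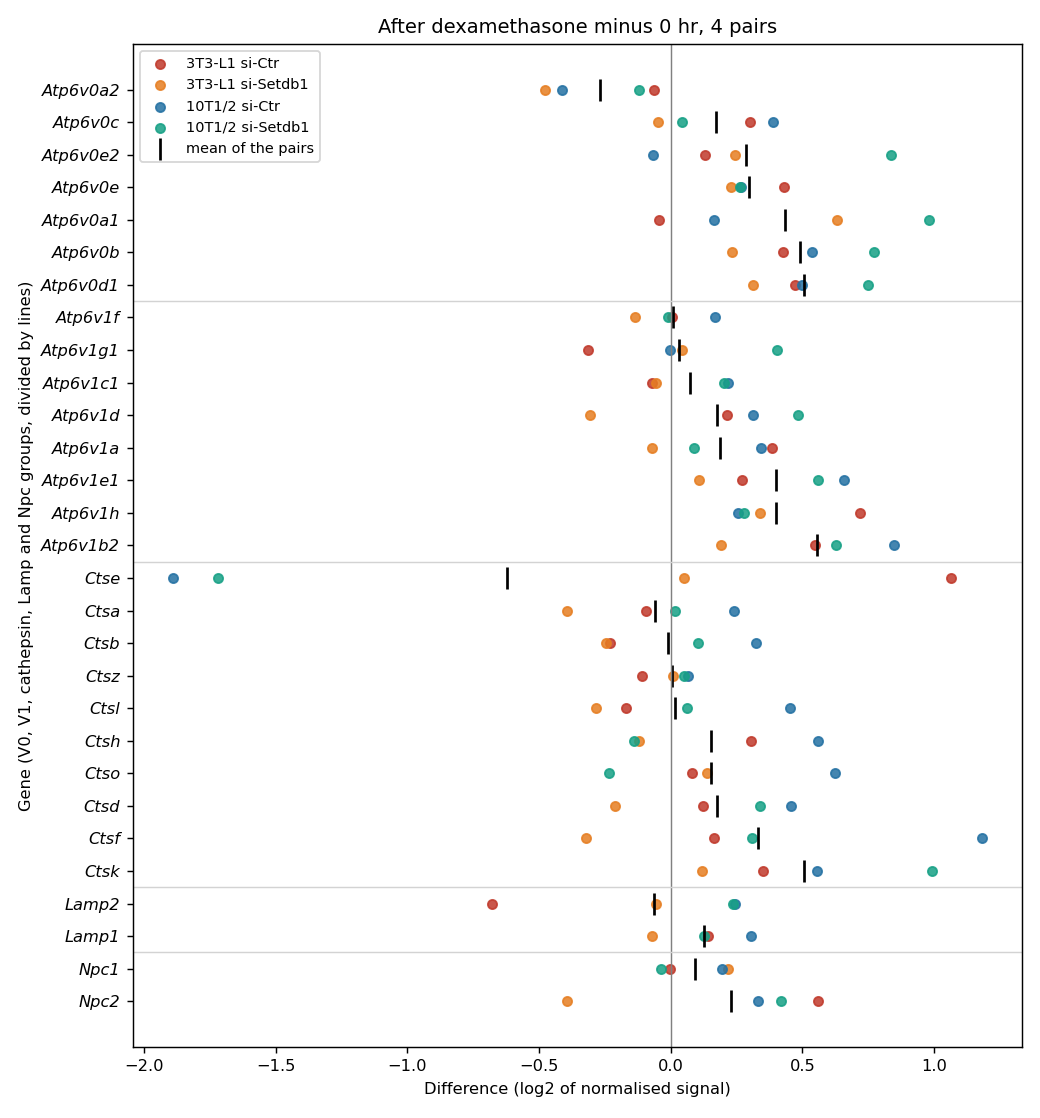
Log2 difference of the normalised signal between the array after dexamethasone and the 0 hr array for each of the 29 members, 1 point per pair coloured by line and labelled siRNA, with a bar at the mean of the 4 pairs. The V-ATPase means lie mostly right of 0 (14 of 15), and Ctse is split by line.

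The third comparison set 10T1/2 against 3T3-L1 cells of experiment A at the same siRNA and dexamethasone state, over 4 pairs. Here 10 of 29 members passed, 2 as higher in 10T1/2 cells and 8 as lower, against a background of 29.6% of all genes tested (14.7% higher and 14.9% lower), and read against that background this share is not a result about the members. The time after dexamethasone was 48 hr in one line and 36 hr in the other, and the 10T1/2 labels carry no experiment letter, so line and experiment cannot be told apart. Of the 10, Ctsk, Atp6v0e2 and Ctsh had a mean signal above 20 in only 1 of the lines and entered the set through the line where they were high, so their differences are given as a description with no test. Of the 26 members above 20 in both lines, 7 passed (26.9%), 1 as higher and 6 as lower. By normalised signal, the arrays of the lines did not overlap for 2 of 29 members higher in 10T1/2 cells (6.9%) and 5 lower (17.2%). Over all genes tested these shares were 14.2% and 14.6%, so a lack of overlap was common. Ctsk, Npc1, Atp6v1f, Atp6v0e2, Ctsl, Atp6v0b, Atp6v1b2 and Atp6v0c were lower in 10T1/2 cells, and Ctsz and Ctsh were higher.

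Ctsk, the collagen-degrading cathepsin of osteoclasts that fibroblasts also make, differed most. In 3T3-L1 cells of experiment A it read 582.6 with si-Ctr and 431.0 with the label si-Setdb1 at 0 hr, and 749.5 and 464.9 at 36 hr. In 10T1/2 cells it read 4.7 and 9.7 at 0 hr and 8.0 and 21.3 at 48 hr. The lines did not overlap, and the log2 difference was -5.53 ± 1.03 (SD, n = 4), or -5.95 to -5.16 over 12 alternative fits. The 4 arrays of experiment B, also 3T3-L1, read 412.2 to 500.5. Most of the 10T1/2 signals are near or under the filter level of 9.32, where the pseudocount bears on the fold. Osteoclast markers summed to 4.9 to 32.7 on any array, with 0 of 5 above 20.

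Npc1 read 119.4 and 122.1 in 3T3-L1 cells at 0 hr and 112.9 and 140.2 at 36 hr, against 66.4, 71.6, 73.7 and 67.1 in 10T1/2 cells. Means were 123.7 ± 11.7 and 69.7 ± 3.5 (SD, n = 4 each), a log2 difference of -0.76 ± 0.11 (SE) with a limma adjusted p of 0.0090, and it passed in 12 of 12 alternative fits. Its partner Npc2 differed by 0.15 (0.511 in the same test), with arrays of the lines overlapping. The 3T3-L1 arrays of experiment B read 131.8 to 138.0 for Npc1, also above all 10T1/2 arrays.

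Among the pump subunits, Atp6v1f, a small V1 subunit of the rotor, read 2337.0, 2457.8, 2568.8 and 2269.8 in 3T3-L1 cells of experiment A (si-Ctr and si-Setdb1 at 0 hr, then at 36 hr) against 1332.4, 975.2, 1526.9 and 997.6 in 10T1/2 cells, a log2 difference of -1.04 (limma adjusted p = 0.0068). Atp6v0e2, an isoform of the small V0 subunit e, read 41.1, 28.8, 42.2 and 33.8 against 14.1, 11.7, 13.5 and 22.8 (-1.15, described only). Both sets of arrays were separate. Atp6v0b read 589.6, 522.3, 809.5 and 614.7 against 408.5, 310.7, 593.0 and 533.1 (-0.47, 0.0430).

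Atp6v1b2 read 486.1, 462.6, 706.9 and 526.3 in 3T3-L1 cells against 260.8, 309.9, 475.3 and 478.4 in 10T1/2 cells (-0.53, limma adjusted p = 0.0481). Atp6v0c read 2315.9, 2619.6, 3168.2 and 2555.6 against 1953.3, 2079.5, 2658.4 and 2260.5 (-0.31, 0.0493). The arrays of the lines overlapped for both and for Atp6v0b. These 3 subunits and Ctsl passed in fewer of the alternative fits than the others, Atp6v0c in 3 of 12 and the rest in 7 of 12. Atp6v1d went the other way without passing (0.65 ± 0.18, 0.0528).

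Ctsz, a carboxypeptidase of the cathepsin family, was the member with the smallest p among those that were higher in 10T1/2 cells. It read 1555.0, 1828.5, 1526.7 and 1870.9 in 3T3-L1 cells of experiment A against 2923.7, 3045.7, 3148.7 and 3374.1 in 10T1/2 cells, with no overlap (log2 difference 0.83 ± 0.09, SE, limma adjusted p = 0.0057). Ctsh read 16.9, 16.1, 20.2 and 15 against 29.1, 51.0, 42 and 45.1 (1.22 ± 0.40, SD, described only), also without overlap. Its mean was 17.1 in these 3T3-L1 arrays and 41.8 in 10T1/2 cells. Ctsl read 3818.3, 3616.6, 3947.8 and 3073.0 against 2362.1, 2036.0, 3416.6 and 2231.8 (-0.61 ± 0.15, 0.0354), where the 10T1/2 si-Ctr array at 48 hr overlapped the 3T3-L1 arrays.

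**Figure D4:**
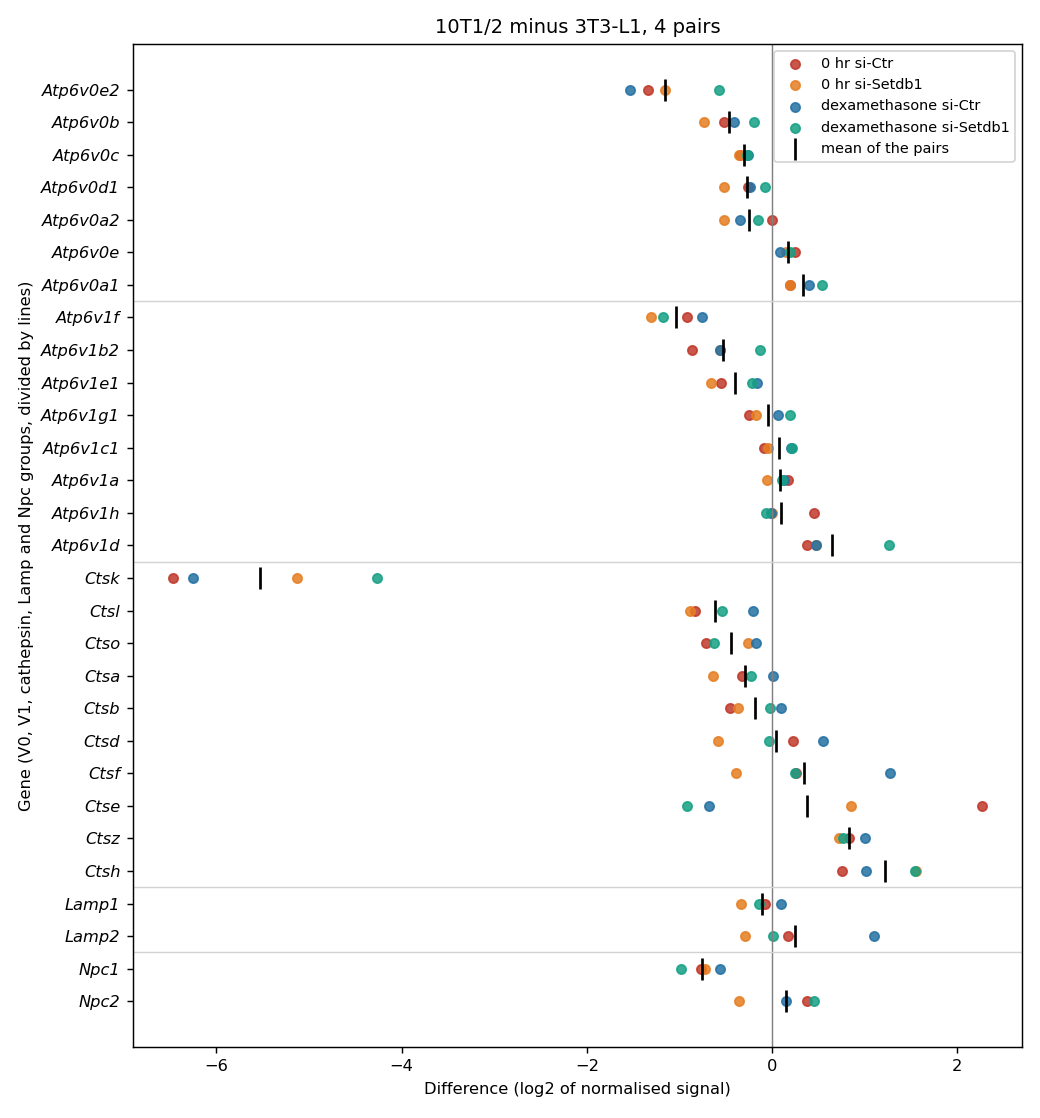
Log2 difference of the normalised signal between 10T1/2 and 3T3-L1 arrays (experiment A) of the same siRNA and dexamethasone state for each of the 29 members, 1 point per pair, with a bar at the mean of the 4 pairs. Ctsk lies near -5.53, far from the other members. Ctsz, Ctsh, Atp6v0a1, Atp6v0e and Atp6v1d lie to the right of 0 in every pair.

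The lone arrays for si-Mbd1 and for the label si-Mcaf1 had 1 control array between them, that of experiment B, and no test was run, so these are differences between single arrays that share that control. Past 2-fold lay 1 of 29 members on the si-Mbd1 array, against 4.05% of all genes tested, and 1 of 29 on the array labelled si-Mcaf1, against 4.81%. In both it was Ctsh, which read 7.5 with si-Ctr, 23.5 with si-Mbd1 and 20.4 with the label si-Mcaf1 (log2 differences of 1.65 and 1.23), a control signal below the filter level. Npc2 read 3941.8 and 3425.3 on the 2 arrays against 3766.3 with si-Ctr (-0.03 and -0.12). Atp6v1d read 458.8 and 331.8 against 426.8 (0.10 and -0.37), and Npc1 138.0 and 136.9 against 134.2. The array labelled si-Setdb1 of the same experiment read 1375.4 for Npc2 and 160.7 for Atp6v1d, below all 3.

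Other genes of the lysosome were counted from 7 lists, 118 of 132 listed genes having entered the tests. In the comparison of si-Setdb1-labelled with si-Ctr arrays 0 of 118 passed, where 1.02% of all genes tested passed, with a median log2 difference of -0.03. Over the alternatives the count ran from 0 to 17, the highest with a variance trend. The nearest were Sort1, a sorting receptor for lysosomal enzymes (1.33 ± 0.21, SE, limma adjusted p = 0.0528), the sialidase Neu1 (-0.74 ± 0.12, 0.0565) and Ostm1, the partner of the lysosomal chloride transporter Clcn7 (0.56 ± 0.10, 0.0599). Of the 10 V-ATPase subunits and helpers with other names, 0 passed (median -0.10), as did 0 of 36 other hydrolases and activators, 0 of 22 membrane proteins, 0 of 16 sorting genes, 0 of 17 genes of the Tfeb family and mTORC1 control, 0 of 6 cathepsin inhibitors and 0 of 13 genes of cholesterol handling.

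After dexamethasone 0 of the 118 passed, and 92 were above 0 with a median of 0.14, beside 6049 above 0 among the 12402 genes tested. The helpers of the V-ATPase were above 0 in 9 of 10 (median 0.16) and the membrane proteins in 19 of 22 (0.29). The nearest to the threshold was Tpcn2, a lysosomal ion channel (0.74 ± 0.15, SE, limma adjusted p = 0.107). Between the lines 14 of the 118 (11.9%) were higher in 10T1/2 cells and 23 (19.5%) lower, beside 14.7% and 14.9% of all genes tested, and these 37 calls ranged from 14 to 50 over the alternatives. Galc, which removes galactose from galactosylceramide, is among the 14 and was higher by 3.69 on the log2 scale (described only). It read 6.2, 12.7, 9.2 and 17.1 in 3T3-L1 cells of experiment A against 147.3, 160, 191.5 and 153 in 10T1/2 cells. It was tested through the line where it was high, and the pseudocount bears on its fold. Stard3, a cholesterol carrier of the late endosome, was higher by 1.01 (limma adjusted p = 0.0053), Tfeb by 1.02 (0.0071) and the cathepsin inhibitor Cst3 by 0.71 (0.0060). The lower genes included Igf2r and M6pr, the mannose 6-phosphate receptors, with log2 differences of -1.12 (0.0038) and -0.72 (0.0091), Gramd1b, a sterol transfer protein, with -1.55 (0.0020), and the V0 subunit Tcirg1 with -0.72 (0.0251).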

How the data were processed

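Total RNA from both lines was hybridised as biotin-labelled cRNA to Affymetrix arrays, per the labels' protocols. The deposited values are linear intensities, 1 for every probe set on every array, and by these values each array was scaled by the authors to a trimmed mean of 100 (2% of probe sets left off each end). The software, background correction and detection calls are not given in the sources used, and deposited log2 ratio columns were not used. Depth does not apply to arrays, whose number limits the precision.

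Of 45101 probe sets, 38068 carried 1 symbol, updated through RefSeq (33189 current, 2004 synonyms, 2875 unmatched and kept). The brightest probe set stood for each of 20670 genes. Signals printed are the deposited intensities. Fits used log2(intensity + 0.8), quantile normalised because array log2 medians differed by 0.65, for the 12402 genes with a mean at or above the 40th percentile (9.32). Fold changes of dim genes are understated. Models were linear fits with moderated variances and no trend (limma 3.58.1, R 4.3.3), with Benjamini-Hochberg adjustment over all tested genes at 0.05. Blocks were the pair (si-Setdb1), line and siRNA (dexamethasone), and siRNA and dexamethasone state (lines). Pairing rests on line, time and the experiment letter in the titles, and the pairs are not shown to be independent. The scripts were tested on simulated data.

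The members and lists were chosen with earlier results of these data known. Named are Npc1, Npc2, members past a threshold, and those with the smallest p in each direction. Alternatives varied the pseudocount, scaling, filter, probe set rule, trend and block, and left out each pair.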

Additional observations from a re-analysis of the deposited data

How the results depend on the processing

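Counts of members past the threshold depended on the filter, the probe set rule and the number of pairs. With the si-Setdb1 label against si-Ctr, 2 members passed as fitted, 0 without the filter on dim genes, 1 with the mean of the probe sets, 1 with no replicate block, 3 with a trend and 0 to 0 with each pair left out. Over all genes the 127 calls among 12402 became 0 among 20670 without the filter and 800 among 8268 with the 60th percentile filter. Among 12402 genes they became 887 with a trend and 6 with the mean of the probe sets. A pseudocount of 4 gave 232 and subtracted array medians gave 193. In 3T3-L1 cells at 0 hr the replicate block by experiment letter gave 0 members, as without it, and no other call of a member count changed under a block. After dexamethasone the count went from 0 to 1 with the 60th percentile filter and 3 with a trend. Between the lines 10 became 6 without the filter, 5 to 7 with each pair left out, 11 with a pseudocount of 4, 12 with the 60th percentile filter and 14 with a trend, and the split of 2 higher and 8 lower became 3 and 7 with array medians subtracted. Past 2-fold, 1 member on the si-Mbd1 array became 0 with the 60th percentile filter and 3 with the mean of the probe sets. For the array labelled si-Mcaf1, 1 became 0 with a pseudocount of 4, 0 with the 60th percentile filter and 3 with the mean of the probe sets.

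Some values changed sign, among them differences of 0.61 (Atp6v0a1, dexamethasone interaction) and -0.92 (Ctsf, line interaction), and the cause was not tested. Npc2 on the si-Mbd1 array became 0.0657 with the deposited scaling and 0.17 with medians subtracted. With the mean of the probe sets, Atp6v0a2 in 3T3-L1 at 0 hr became -0.15, the line interaction 0.0071 for Npc2 and 0.12 for Ctsf, Ctsa after dexamethasone 0.16, Atp6v1d on the si-Mbd1 array -0.0292 and Npc2 on the array labelled si-Mcaf1 0.13. Without the 3T3-L1 si-Setdb1 pair, Ctsa after dexamethasone became 0.0536 and the line difference in the dexamethasone effect on Npc2 -0.18. Other probe sets gave, for the line interaction, 0.20 and 0.31 (Npc2) and -0.0748 and -0.0018 (Atp6v1d), for the dexamethasone interaction 0.88 (Npc2), -1.37 (Atp6v0a1) and -0.40 (Atp6v1g1), after dexamethasone 0.37 (Ctsa) and 0.13 (Atp6v0a2), in 3T3-L1 at 0 hr -0.84 (Atp6v0a2) and between the lines -0.14 (Npc2). Over all values recomputed, 1250 kept their direction and side of the threshold, 40 no longer passed, 10 newly passed, 60 counts or untested values moved and 21 changed sign.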
